A study of Mus musculus with 94 samples.

Results

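The 10 loci of the retrotransposon LINE-1 (L1), named by the study as rescued by lamivudine in 1 brain region of Ts65Dn mice, were followed in both brain regions, in all 4 groups of mice and mouse by mouse. They are 10 of the 430083 L1 elements of the deposited count table, 6 listed for cortex and 4 for hippocampus. In the study's use, a rescued L1 is differentially expressed in non-treated trisomic mice against non-treated wild-type mice and no longer so once trisomic mice are treated. The cortex list is L1_Mus2_dup18345, Lx8_dup23295, Lx7_dup14700, Lx6_dup17183, L1MA4_dup880 and Lx2A_dup118, and the hippocampus list is Lx5c_dup5368, L1_Mus3_dup17767, Lx7_dup11750 and L1Md_F2_dup5854. They were chosen by the levels of the non-treated groups and of treated trisomic mice in the tissue of the list, so in that tissue they are described and not tested. The tissue an element was not listed for, treated wild-type mice and the agreement between the tissues of a mouse were not part of the choice. The other tissue came from the same mice, with 46 of 48 giving both, so it is not a sample of new mice.

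The mice were male Ts65Dn (TS) and wild-type (WT) littermates from B6EiC4Sn.BLiA-Ts(1716)65Dn/DnJ mothers and hybrid fathers, given as C57BL/6 × 6JOlaHsd (B6C3F1/OlaHsd), 3–4 months old when the experiments were done. Ts65Dn mice carry an extra segment with parts of MMU16 and MMU17 and are a model of Down syndrome. Treated mice (-t) drank water with lamivudine, an inhibitor of reverse transcriptase, at 3 mg/kg for 4 months, and non-treated mice (-nt) drank water alone. Total RNA of cortex was sequenced from 9 WT-nt and 9 TS-nt mice and from 17 treated WT and 13 treated TS mice, and that of hippocampus from 8, 8, 17 and 13, so that 46 of the 48 mice had both tissues. Each library was taken as 1 mouse from its label, but the methods also mention pooling samples in groups of 3 per condition and do not state whether libraries were pools. P-values then measure the spread between these libraries.

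L1 elements copy themselves through an RNA that reverse transcriptase turns back into DNA, and most copies in the genome are old, cut short and no longer mobile. L1Md copies belong to the young mouse families, L1_Mus and Lx copies to older families of mouse and rodent genomes, and L1MA copies to families shared among mammals. An RNA read can come from a copy's own promoter or from a longer transcript of a gene that holds the copy. In bulk tissue, fewer cells that make an RNA and less of that RNA per cell cannot be told apart.

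On the GRCm38 build with GENCODE M21 genes, 4 of the 10 elements lay in an exon or untranslated region, 4 in an intron and 2 outside annotated genes. L1MA4_dup880 (chr2:112471514-112471892, + strand) lay within the 3′ untranslated region of Emc7, a subunit of the endoplasmic reticulum membrane protein complex. Lx2A_dup118 (chr2:73337473-73337529, + strand), the shortest of them with 57 bases, lay within the 3′ untranslated region of Scrn3, a member of the secernin family. L1_Mus3_dup17767 (chr7:59329352-59330039, - strand) lay in an exon of the transcript A230103L15Rik, inside an intron of Snhg14, the long RNA that hosts small nucleolar RNAs and runs antisense to Ube3a. Lx7_dup11750 (chr5:107390722-107393003, - strand) shared 273 of its 2282 bases with the last exon of the non-coding Gm42902. All 4 had the strand of their host transcript, and reads of that transcript and of a transcript started in the element cannot be told apart in these counts.

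The 4 intronic elements were all from the cortex list. L1_Mus2_dup18345 (chr15:20551458-20554617, - strand), the longest with 3160 bases, lay on the strand opposite to Cdh12, a cadherin of neurons. Lx7_dup14700 (chr7:61910864-61911288, + strand) lay opposite to the long non-coding A230057D06Rik. Lx8_dup23295 (chr9:64971140-64971657, + strand) had the strand of its host Ints14, a subunit of the Integrator complex. Lx6_dup17183 was the other intronic element. Outside genes were Lx5c_dup5368 (chr5:104640220-104641102, + strand), 86013 bases from the nearest annotated gene, D930016D06Rik, and L1Md_F2_dup5854 (chr2:45547199-45547811, + strand), 99380 bases from Gm13478. The kit kept the strand of the RNA, and whether the counting used it is not given in the sources used here.

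The start of the element is shown for the 2 that lie in non-coding exons, because there the element is part of an annotated transcript. Each run is 300 bases of GRCm38, read from the GENCODE M21 transcript, 5′ to 3′ on the - strand, at chr7:59329767-59330066 for L1_Mus3_dup17767 and chr5:107392731-107393030 for Lx7_dup11750. The 27 lower-case bases come before the element and the 273 capitals are its first bases.
L1_Mus3_dup17767: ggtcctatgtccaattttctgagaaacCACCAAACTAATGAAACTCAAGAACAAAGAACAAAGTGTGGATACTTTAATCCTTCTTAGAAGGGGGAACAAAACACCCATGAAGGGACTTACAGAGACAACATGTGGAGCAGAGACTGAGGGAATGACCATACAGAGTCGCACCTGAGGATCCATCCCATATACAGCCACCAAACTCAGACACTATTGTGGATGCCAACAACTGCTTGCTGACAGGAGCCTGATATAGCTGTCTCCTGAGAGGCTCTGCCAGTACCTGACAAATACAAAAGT
Lx7_dup11750: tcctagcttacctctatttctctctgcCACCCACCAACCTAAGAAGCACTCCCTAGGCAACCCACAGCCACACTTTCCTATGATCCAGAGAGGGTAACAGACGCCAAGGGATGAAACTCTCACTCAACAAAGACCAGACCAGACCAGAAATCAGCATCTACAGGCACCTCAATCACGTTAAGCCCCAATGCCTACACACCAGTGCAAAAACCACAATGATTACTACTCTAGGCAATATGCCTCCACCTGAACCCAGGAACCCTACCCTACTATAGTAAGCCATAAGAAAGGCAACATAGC
The element bases inside the exon were 47.8% G or C in L1_Mus3_dup17767 and 48.7% in Lx7_dup11750. Their longest stretch without a stop codon was 72 and 63 codons, in the 3 forward reading frames.

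The library totals of L1 counts ran from 186545 to 1165192 in cortex and from 178454 to 403378 in hippocampus, and the 10 elements together held 0.165% and 0.168% of them. Levels are given as counts per 1000000 L1 counts of the library with TMM scaling (CPM), as mean ± SD between mice. At the median depth 1 count was worth 3.05 CPM in cortex and 3.84 CPM in hippocampus, so levels of a few CPM rest on single reads, and 3 counts, the most a count of 0 allows, on 9.14 and 11.5 CPM. Both floors cover counting error only. There were 9 cortex libraries and 0 hippocampus libraries that lay far from the rest on the first principal component, and the 2 deepest cortex libraries were those of mouse 24 (WT-nt) and mouse 27 (TS-nt), in an arbitrary numbering of the mice from 1 to 48. All non-treated mice had animal labels beginning with 20, while WT-t mice divided into 6, 8 and 3 with labels beginning with 18, 19 and 20 and TS-t mice into 1, 4 and 8, so label start and treatment are partly confounded.

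In cortex, the tissue of their list, the 4 intronic elements were lowest in TS-nt mice. Lx6_dup17183 ran from 31.9 CPM over a median of 72.2 to 143 in the 9 WT-nt mice, and from 14.5 over 29.03 to 143 in the 9 TS-nt mice. The ranges overlapped, and 1 TS-nt mouse, mouse 27, was as high as the highest WT-nt mouse. Means were 79.4 ± 33.5 CPM in WT-nt, 57.8 ± 25.6 in WT-t, 42.5 ± 41.3 in TS-nt and 68.0 ± 32.9 in TS-t. L1_Mus2_dup18345 had means of 43.2 ± 14.6, 20.5 ± 15.1, 17.8 ± 22.3 and 30.7 ± 14.01 CPM in the same order. Its 17 WT-t mice, from 0 over 19.03 to 46.2 CPM, sat nearer to TS-nt than to WT-nt.

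The 2 rarest elements of the cortex list had low counts. Lx8_dup23295 was at 0 counts in 2 of 9 WT-nt, 9 of 17 WT-t, 7 of 9 TS-nt and 7 of 13 TS-t cortex libraries. Its means were 21.4 ± 22.7, 7.11 ± 9.69, 0.577 ± 1.25 and 7.10 ± 12.6 CPM, and the WT-nt mean alone was above the floor of 3 counts. Lx7_dup14700 was at 0 counts in 0 of 9 WT-nt, 3 of 17 WT-t, 3 of 9 TS-nt and 3 of 13 TS-t cortex libraries. Its means were 25.2 ± 14.02, 13.6 ± 10.4, 8.73 ± 11.9 and 11.8 ± 10.3 CPM. Neither passed the filter on low counts in either tissue.

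The 2 elements of the cortex list that lie in untranslated regions went the other way and were highest in TS-nt mice. L1MA4_dup880 ran from 124 over 509 to 802 CPM in WT-nt cortex and from 438 over 744 to 1035 in TS-nt cortex. Means were 509 ± 189, 582 ± 192, 764 ± 175 and 613 ± 212 CPM in WT-nt, WT-t, then TS-nt and TS-t. Lx2A_dup118 ran from 0 over 35.6 to 54.2 CPM in WT-nt and from 53.6 over 79.1 to 137 in TS-nt, and these 2 groups overlapped only by the highest WT-nt and the lowest TS-nt mouse. Its WT-t mice had a mean of 63.4 ± 45.02 CPM and its TS-t mice one of 55.0 ± 36.4.

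Mice 24 and 27 weighed on the 4 intronic elements. On the TMM scale, mouse 24 was the highest WT-nt mouse in cortex for each of them. It had 62.95 CPM of L1_Mus2_dup18345, 70.6 of Lx8_dup23295, 55.3 of Lx7_dup14700 and 143 of Lx6_dup17183. These were 33, 37, 29 and 75 of 1165192 L1 counts, and the TMM factor of this library, 0.450, was the lowest in cortex and raises its CPM. Without TMM factors the WT-nt means of the 4 elements were 39.7, 17.4, 22.1 and 71.8 CPM, against 17.2, 0.576, 8.23 and 41.5 CPM in TS-nt. The same library held 0 counts of Lx2A_dup118 and of Lx5c_dup5368, L1_Mus3_dup17767 and L1Md_F2_dup5854, and the lowest level of L1MA4_dup880. Mouse 27 was the highest TS-nt mouse for L1_Mus2_dup18345, Lx7_dup14700 and Lx6_dup17183. Without both, the ratio of the TS-nt to the WT-nt mean went from 0.413 to 0.275 for L1_Mus2_dup18345, from 0.346 to 0.238 for Lx7_dup14700, from 0.535 to 0.418 for Lx6_dup17183 and from 2.72 to 2.23 for Lx2A_dup118. All 6 kept their direction.

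In hippocampus, the tissue of their list, 3 of 4 elements were lowest in TS-nt mice. Lx5c_dup5368 ran from 59.3 over 104 to 233 CPM in the 8 WT-nt mice and from 0 over 6.15 to 58.6 in the 8 TS-nt mice. The lowest WT-nt mouse lay above the highest TS-nt mouse by less than the 3.84 CPM that 1 count is worth. These groups chose the element, and the share of all elements without overlap was not computed, so nothing is read from it. Means were 114 ± 56.5, 74.2 ± 65.8, 21.3 ± 26.5 and 58.1 ± 37.5 CPM in WT-nt, WT-t, then TS-nt and TS-t. Lx7_dup11750, the most abundant of the hippocampus list, had means of 609 ± 201, 547 ± 128, 376 ± 47.4 and 510 ± 192 CPM. L1_Mus3_dup17767 had means of 63.7 ± 26.3, 30.6 ± 32.5, 16.7 ± 13.7 and 37.9 ± 39.9 CPM. L1Md_F2_dup5854, the one member of a young L1Md family, was highest in TS-nt mice, with means of 25.8 ± 16.7, 42.9 ± 38.5, 98.6 ± 60.5 and 60.5 ± 34.5 CPM.

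**Figure D1:**
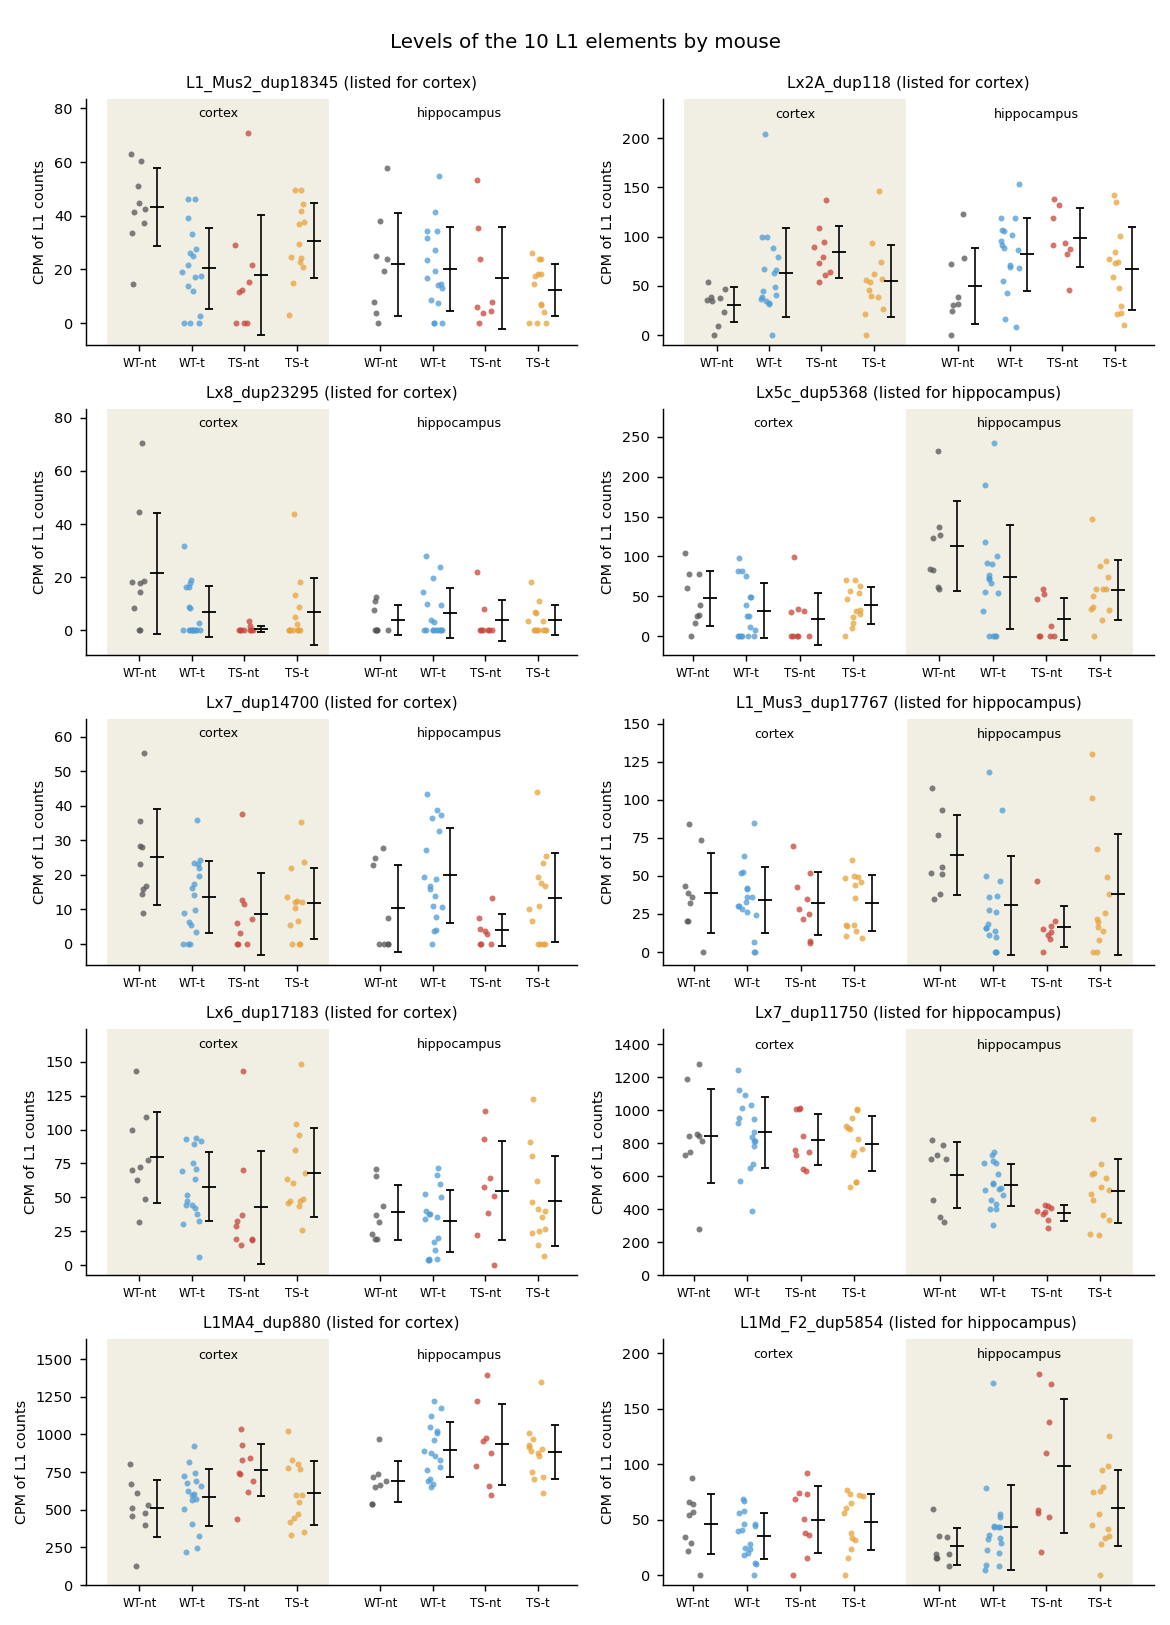
Level of each of the 10 elements in every library, in CPM of L1 counts, by group in cortex (left of each panel) and hippocampus (right), with the tissue of the list shaded. Points are mice and bars are mean ± SD, and on the shaded side of every panel the WT-t and TS-t means lie between those of WT-nt and TS-nt.

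Treated wild-type mice were not used to choose the elements, but they are set against the WT-nt libraries that were. In the tissue of the list the WT-t mean lay between the WT-nt and TS-nt means for 10 of 10 elements, and so did the TS-t mean, beside 38.3% and 36.8% of all elements tested in cortex and 40.9% and 37.8% in hippocampus. The choice of elements for distant WT-nt and TS-nt means bears on this count, so nothing is read from it. In the other tissue the WT-t mean lay between for 5 of 10 and the TS-t mean for 7 of 10. The sign of TS-nt minus WT-nt was that of the list in 9 of 10 in the other tissue, with Lx6_dup17183 the exception. It was so in 7 of 10 without TMM factors, and in 8 of 10 with medians or without the libraries far along the first principal component. Over the 3722 elements that passed the filter in both tissues, as 7 of the 10 did, 56.8% had 1 sign in both. The same mice chose the elements in the tissue of the list, so this is not a count in new mice. Several of the 9 differences were small. That of Lx8_dup23295 in hippocampus was 3.75 against 3.91 CPM, and that of Lx7_dup11750 in cortex was 820 against 843 CPM. With treated mice limited to labels beginning with 20, the WT-t count fell to 6 of 10 in the tissue of the list and to 3 of 10 in the other tissue, and the TS-t count in the other tissue to 3 of 10.

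The test of the elements in the tissue they were not listed for gave no call. Elements were tested with edgeR's quasi-likelihood test over all 4 groups of a tissue, with p-values adjusted by the Benjamini-Hochberg method over all elements tested and a threshold of 0.1. In hippocampus 3 of the 6 cortex-listed elements passed the filter (Lx6_dup17183, L1MA4_dup880 and Lx2A_dup118), and 0 of 3 were called in each of 6 comparisons. Of all 4238 elements tested there, 0.0708% were called for TS-nt against WT-nt mice and 0.118% for treated TS against WT-nt mice. In the other comparisons, which are treated against non-treated mice of each genotype, the treated genotypes against each other and the genotype-by-treatment interaction, 0% were called. In cortex all 4 hippocampus-listed elements passed and 0 of 4 were called in any of these comparisons, where 0% of 5416 elements were called. DESeq2's Wald test, run as an alternative, called 0 of them as well, and at most 0.401% of all elements in a comparison.

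At an unadjusted p-value below 0.05, edgeR gave 2 of 3 elements in hippocampus in TS-nt vs. WT-nt (4.13% of all), 1 of 3 in WT-t vs. WT-nt (3.16%), 1 of 3 in TS-t vs. WT-nt (4.11%) and 2 of 3 in the interaction (3.37%). In TS-t vs. TS-nt (3.26%) and TS-t vs. WT-t (3.89%) it gave 0 of 3. In cortex it gave 0 of 4 in each comparison, where 1.48% of all elements did for TS-nt vs. WT-nt, 0.831% for TS-t vs. TS-nt, 1.48% for WT-t vs. WT-nt, 1.68% for treated TS against WT-nt mice, 1.75% between the treated genotypes and 1.07% for the interaction. The elements behind the hippocampus counts were L1MA4_dup880 and Lx2A_dup118, both in untranslated regions.

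L1MA4_dup880 was higher in the hippocampus of each of the 3 other groups than in WT-nt mice. It ran from 538 over 677 to 971 CPM in WT-nt, from 652 over 877 to 1223 in WT-t, from 601 over 918 to 1396 in TS-nt and from 613 over 887 to 1346 in TS-t. The 4 ranges overlapped, and the highest WT-nt mouse, mouse 43, stood well above the other 7. Means were 689 ± 136, 899 ± 181, 934 ± 269 and 884 ± 180 CPM. The exact permutation test of the difference in means, two-sided, gave an unadjusted p of 0.0342 for TS-nt, 0.00844 for WT-t and 0.0136 for TS-t, each against WT-nt. These comparisons share their WT-nt mice. The edgeR log2 fold changes were 0.44 (95% confidence interval 0.11 to 0.76) for TS-nt, 0.38 (0.10 to 0.67) for WT-t and 0.36 (0.06 to 0.65) for TS-t, and with Benjamini-Hochberg adjustment over all elements none of the p-values passed the threshold.

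Between treated and non-treated trisomic mice, L1MA4_dup880 differed in hippocampus by a log2 fold change of -0.08 (-0.37 to 0.21), with 884 against 934 CPM. The treated groups of both genotypes stood at 884 and 899 CPM, a log2 fold change of -0.02 (-0.26 to 0.21). The interaction, which asks whether treatment moved TS mice differently from WT mice, was -0.46 (-0.87 to -0.06) and was not called after Benjamini-Hochberg adjustment of edgeR's p-values. Treated mice of the label starts 18, 19 and 20 had hippocampus means of 826, 944 and 922 CPM in WT-t and of 704, 773 and 961 CPM in TS-t, with 1 mouse only in the first TS-t class. With WT-t limited to the 3 mice of label start 20, the exact permutation p of WT-t vs. WT-nt was 0.0727. The TS-nt difference had exact permutation p-values of 0.0650 on ranks and 0.0586 without TMM factors, so its position at the threshold of 0.05 rests on these choices.

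Lx2A_dup118 had its lowest mean in WT-nt and its highest in TS-nt mice in both tissues, which in cortex was part of the choice. The treated groups lay between them, and their order depended on the processing. WT-t was above TS-t by means in both tissues, but in cortex the medians were 49.1 CPM in WT-t and 53.9 in TS-t. With treated mice of label start 20 TS-t was the higher in both tissues, at 56.0 against 54.5 CPM in cortex and 76.8 against 74.1 CPM in hippocampus. In hippocampus it ran from 0 over 35.2 to 123 CPM in WT-nt, from 8.60 over 88.4 to 154 in WT-t, from 46.3 over 92.8 to 138 in TS-nt and from 10.3 over 72.7 to 143 in TS-t. Means were 49.9 ± 38.8, 82.2 ± 37.2, 98.8 ± 30.01 and 67.5 ± 42.02 CPM. The groups overlapped, and TS-nt mice were 1.98 times WT-nt mice with an exact permutation p of 0.0177. No other comparison had a permutation p below 0.05. Exact permutation p-values were 0.346 for TS-t vs. WT-nt and 0.0838 for TS-t vs. TS-nt, and 100000 draws gave 0.320 for TS-t vs. WT-t. WT-t mice stood at 1.65 times WT-nt mice, and their exact permutation p was not below 0.05 either. The edgeR log2 fold change of TS-nt vs. WT-nt was 0.98 (0.13 to 1.84), and that of WT-t vs. WT-nt 0.72 (-0.04 to 1.48). The interaction was -1.27 (-2.33 to -0.21), again not called after Benjamini-Hochberg adjustment.

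Lx6_dup17183 was the one element whose TS-nt and WT-nt means changed order between tissues. In hippocampus it ran from 19.02 over 34.4 to 70.8 CPM in WT-nt and from 0 over 54.2 to 113 in TS-nt, against the opposite order in cortex. Means were 38.8 ± 20.1, 32.3 ± 22.8, 55.0 ± 36.5 and 47.3 ± 33.3 CPM in WT-nt, WT-t, then TS-nt and TS-t. The difference was within the spread, with an exact permutation p of 0.292 and an edgeR log2 fold change of 0.49 (-0.59 to 1.58).

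The 3 other cortex-listed elements were too rare in hippocampus for the count model. L1_Mus2_dup18345 had means of 21.9 ± 19.1, 20.1 ± 15.6, 16.8 ± 19.03 and 12.3 ± 9.77 CPM, and its TS-nt and WT-nt mice differed with an exact permutation p of 0.591. Lx7_dup14700 had means of 10.4 ± 12.6, 19.9 ± 13.7, 3.99 ± 4.602 and 13.4 ± 13.01 CPM. For this element both treated groups were the highest, and its smallest exact permutation p was 0.0591, for TS-t vs. TS-nt. Lx8_dup23295 had a median of 0 in each group and means between 3.75 and 6.62 CPM, all under the floor of 3 counts. That floor is for 1 library and not for a group mean. The groups held 9, 30, 7 and 14 counts in total in WT-nt, WT-t, then TS-nt and TS-t. A difference between them thus rests on few reads.

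In cortex, the hippocampus-listed Lx5c_dup5368 ran from 0 over 38.6 to 105 CPM in WT-nt, from 0 over 25.3 to 97.9 in WT-t, from 0 over 0 to 98.7 in TS-nt and from 0 over 32.5 to 70.2 in TS-t. It was at 0 counts in 1 of 9 WT-nt, 6 of 17 WT-t, 5 of 9 TS-nt and 1 of 13 TS-t libraries. Means were 47.6 ± 34.6, 31.9 ± 34.5, 21.6 ± 32.8 and 38.6 ± 23.1 CPM, the same order of WT-nt and TS-nt as in hippocampus. The difference was within the spread, with an exact permutation p of 0.124 and an edgeR log2 fold change of -1.10 (-2.88 to 0.69). In WT-t cortex the mean was 8.40 CPM in the 6 mice of label start 18, with 4 of them at 0, 41.1 CPM at label start 19 and 54.3 CPM at label start 20, while in hippocampus it was 64.0, 64.7 and 120 CPM.

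For the 3 other hippocampus-listed elements, the 95% confidence intervals of the edgeR log2 fold change of TS-nt vs. WT-nt in cortex held 0. Lx7_dup11750 ran from 282 over 841 to 1281 CPM in WT-nt cortex and from 634 over 760 to 1012 in TS-nt cortex. Its means were 843 ± 285, 866 ± 215, 820 ± 154 and 797 ± 165 CPM, and the edgeR log2 fold change of TS-nt vs. WT-nt was -0.04 (-0.53 to 0.45). The lowest WT-nt value was that of mouse 24, and without it the mean difference of -23.1 CPM became larger in size, at -93.2 CPM. L1_Mus3_dup17767 had means of 38.7 ± 26.3, 34.5 ± 21.7, 32.02 ± 20.7 and 32.3 ± 18.3 CPM, with a log2 fold change of -0.25 (-1.40 to 0.89). L1Md_F2_dup5854 had means of 45.9 ± 26.9, 35.3 ± 20.4, 49.8 ± 30.2 and 47.4 ± 25.3 CPM, with a log2 fold change of 0.12 (-0.94 to 1.19). The differences between tissues in these fold changes were not tested. Over both tissues, 50 permutation tests of single elements were made in the tissue they were not listed for, and 4 had an unadjusted p-value below 0.05, the 3 of L1MA4_dup880 and the 1 of Lx2A_dup118 given above.

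**Figure D2:**
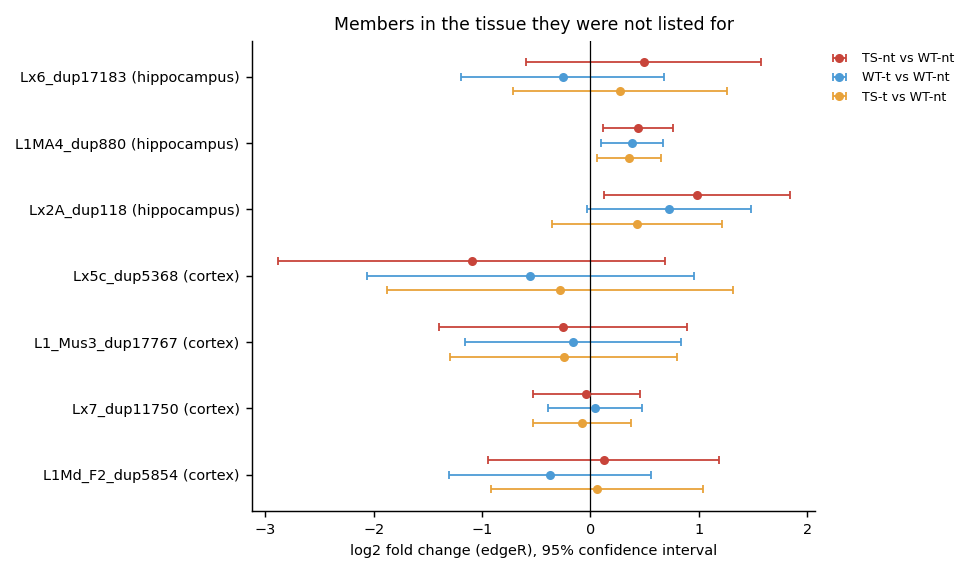
Log2 fold change against WT-nt mice, from edgeR with 95% confidence intervals, of the 7 elements that could be tested in the tissue they were not listed for, which is given in brackets. Colours are TS-nt, WT-t and TS-t mice, and the intervals of L1MA4_dup880 lie above 0 for all 3 groups while those of the 4 elements tested in cortex all hold 0.

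Cortex and hippocampus differed in the level of some elements on the average of the groups. A joint edgeR fit of all 94 libraries compared the mean of the 4 cortex groups with that of the 4 hippocampus groups, and 4 of the 8 elements that passed its filter were called at a Benjamini-Hochberg adjusted p below 0.1, beside 23.3% of all 7551 elements. At an unadjusted p-value below 0.05 edgeR gave the same 4 of 8, beside 29.1% of all. Of these 4, 3 were higher in cortex (12.6% of all) and 1 was lower (10.6%). Among the 3 higher, L1_Mus2_dup18345 had passed the filter of cortex and not that of hippocampus, so the filter itself favoured a higher level in cortex. Of the 7 elements that passed in both tissues, 3 were called. Lx7_dup11750 was the clearest, with 874 CPM in cortex and 494 CPM in hippocampus on the joint scale, a log2 difference of 0.86 (0.65 to 1.07). Lx6_dup17183 had 64.6 and 39.7 CPM, a log2 difference of 0.65 (0.22 to 1.08) with an adjusted p of 0.0208 in edgeR. Its TS-nt mice ran the other way on the scale of each tissue, with means of 42.5 CPM in cortex and 55.0 CPM in hippocampus, and the tissues were not tested within single groups. L1MA4_dup880 was lower in cortex, with 641 against 826 CPM, a log2 difference of -0.33 (-0.54 to -0.12) and an adjusted p of 0.0152 in edgeR.

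The animal labels pair the tissues, and the fit with the mouse as a replicate block changed 2 calls. L1_Mus2_dup18345, at 28.3 CPM in cortex and 16.8 CPM in hippocampus, entered the fit through its cortex libraries. Its log2 difference was 0.74 (0.11 to 1.37) with an edgeR adjusted p of 0.0936, and 0.79 with an adjusted p of 0.171 in the paired fit. Lx5c_dup5368, at 36.4 and 64.7 CPM, had a log2 difference of -0.61 (-1.35 to 0.13) with an edgeR adjusted p of 0.271, and one of -0.98 (-1.57 to -0.39) with an adjusted p of 0.00946 in the paired fit. The paired fit thus also called 4 of 8, with 2 higher and 2 lower in cortex, beside 22.8% of all 7551 elements (911 higher and 814 lower). For Lx2A_dup118, L1_Mus3_dup17767 and L1Md_F2_dup5854 the log2 differences were -0.25 (-0.66 to 0.15), 0.17 (-0.35 to 0.70) and -0.06 (-0.53 to 0.41).

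**Figure D3:**
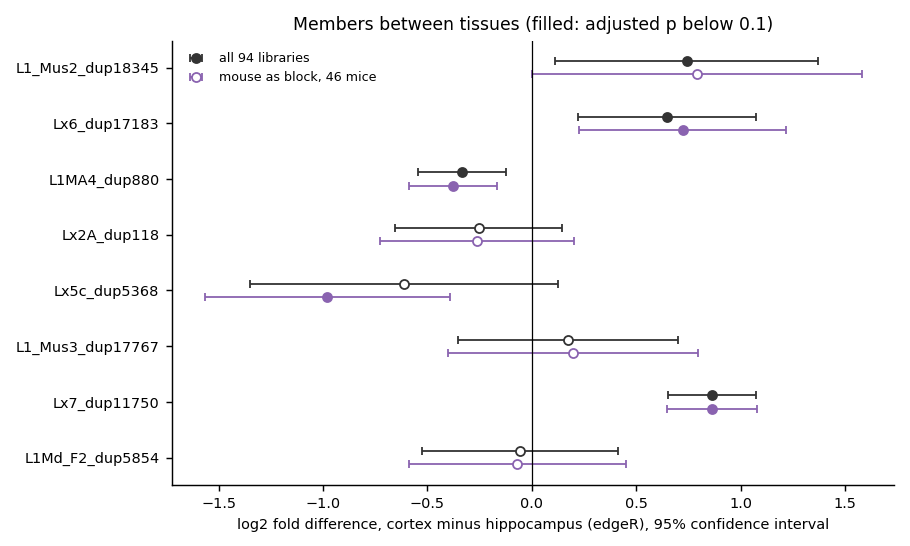
Log2 difference between cortex and hippocampus of the 8 elements that passed the joint filter, with 95% confidence intervals, in the fit of all 94 libraries (dark) and with the mouse as a block in the 46 mice with both tissues (purple). Filled points were called at an adjusted p below 0.1, and Lx7_dup11750 is furthest above 0 in both fits.

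Whether a mouse high in 1 tissue was high in the other was asked over the 46 mice with both tissues. Of the 10 elements, 7 passed the filter in both tissues, and 1 of 7 had a Spearman correlation with an adjusted p below 0.1, beside 8.14% of the 3722 elements tested. That element was Lx5c_dup5368, with a Spearman's rho of 0.617 (permutation test, Benjamini-Hochberg adjusted p = 0.00167) and a Pearson's r of 0.723 on the log2 scale (adjusted p = 0.000582, permutation test). Its rho was above that of 98.4% of the elements tested, whose median was 0.112. Without the 2 mice farthest from the median in cortex, r was 0.689 and rho 0.567. With group means subtracted, rho was 0.637. The prior count added before the logarithm does not alter the order of levels, and libraries at 0 counts should tie. With a prior count of 0.5, rho of Lx5c_dup5368 was nevertheless 0.598 (permutation test, Benjamini-Hochberg adjusted p = 0.00248). Ties at 0 counts were thus not kept in the ranks, and each rho of an element with 0 counts is approximate. Pearson's r does not use ranks.

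Mice with 0 counts took part in the relation of Lx5c_dup5368, and their share in it was not tested. Lx5c_dup5368 had counts in both tissues in 33 mice and 0 counts in both tissues in 9 mice. The 9 mice were 0 of 8 WT-nt, 4 of 17 WT-t, 4 of 8 TS-nt and 1 of 13 TS-t mice. In 4 mice it had counts in hippocampus only, and in 0 mice in cortex only. Among mice at 0 counts in cortex, the highest hippocampus count was 44, in a WT-t mouse, so a count of 0 need not mean absence. Over the 33 mice with counts in both, a subset taken after the values were seen, rho was 0.428 and r 0.405. Within label starts, rho was 0.721 in the 27 mice of label start 20 (permutation p = 5e-05) and 0.601 in the 12 mice of label start 19 (permutation p = 0.0438), and it was 0 in the 7 mice of label start 18, with an exact permutation p of 1.0.

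**Figure D4:**
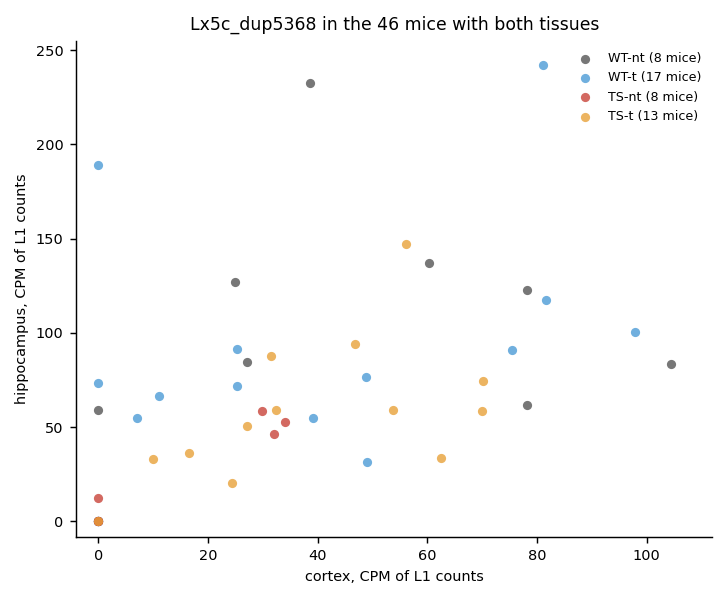
Level of Lx5c_dup5368 in cortex (x) and hippocampus (y), in CPM of L1 counts, with 1 point for each of the 46 mice, coloured by group. The point at the origin stands for the 9 mice with 0 counts in both tissues, and no mouse lies on the cortex axis away from it.

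The other 9 elements agreed less between the tissues of a mouse. L1_Mus3_dup17767 had a rho of 0.323, L1MA4_dup880 of 0.302, L1Md_F2_dup5854 of 0.295, Lx8_dup23295 of 0.272 and Lx7_dup11750 of 0.256. These lay above the median of all elements and below its 90th percentile, 0.364. The value of Lx8_dup23295, which passed the filter in neither tissue, depended on the ranks of mice at 0 counts. It was 0.160 with a prior count of 0.5, where L1_Mus3_dup17767 had 0.316 and L1Md_F2_dup5854 0.308. Over the 11 mice with counts of Lx8_dup23295 in both tissues, a subset taken after the values were seen, it was -0.127. L1_Mus2_dup18345 had a rho of 0.134, Lx2A_dup118 of 0.08, Lx6_dup17183 of 0.02 and Lx7_dup14700 of -0.13. For Lx2A_dup118, WT-nt had the lowest and TS-nt the highest mean in both tissues, and the ranks of single mice were nearly unrelated.

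**Figure D5:**
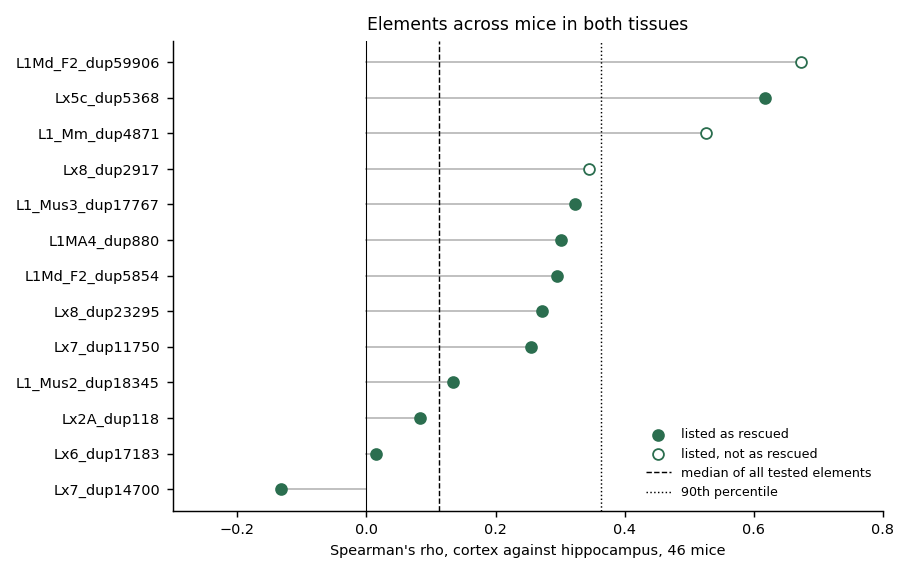
Spearman's rho between the cortex and hippocampus levels of a mouse over 46 mice, for the 10 elements listed as rescued (filled) and 3 listed for TS-nt vs. WT-nt but not as rescued (open). The dashed and dotted lines are the median (0.112) and the 90th percentile (0.364) of all elements tested, and Lx5c_dup5368 is the one filled point beyond the second. Ties at 0 counts were not kept in the ranks, so points of elements with 0 counts are approximate.

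The elements differed in their place among copies of their subfamily. L1MA4_dup880 was the most abundant of the 3372 L1MA4 copies in the table in both tissues, with 8.11% of the subfamily's CPM in cortex and 10.3% in hippocampus. Lx2A_dup118 was the most abundant of 520 Lx2A copies, with 9.18% and 14.3%. Lx7_dup11750 was in place 7 of 15508 Lx7 copies in both tissues. The other 7 were further down, to place 1038 in cortex and 1921 in hippocampus among 22485 copies for Lx8_dup23295. Per kilobase of element, mean levels over all libraries of cortex ran from 8.55 CPM for L1_Mus2_dup18345 over 366 CPM for Lx7_dup11750 and 1035 CPM for Lx2A_dup118 to 1611 CPM for L1MA4_dup880. With 57 bases Lx2A_dup118 is shorter than a sequencing read of the study, so its value per kilobase is not comparable with those of longer elements.

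By the likeness of their levels over the libraries of a tissue, given as Spearman's rho with no test, L1_Mus2_dup18345 and Lx6_dup17183 were close to each other in cortex (0.583 over 48 libraries). They lie on different chromosomes, and each was among the 2 elements most like the other of 5415 compared. Lx5c_dup5368 was most like Lx5c_dup5421 (0.606) and Lx7_dup11750 (0.584) in the 46 hippocampus libraries, and most like L1Md_F2_dup19834 (0.693) and Lx6_dup5549 (0.603) in cortex. L1MA4_dup880 was most like L1MC1_dup537 (0.826) and L1MD_dup3326 (0.823) in cortex, and most like Lx8_dup31267 (0.569) and L1Md_F2_dup16613 (0.537) in hippocampus. L1_Mus3_dup17767 was most like L1_Mus3_dup44600 (0.671) in hippocampus and Lx8b_dup21391 (0.621) in cortex. The 2 most alike elements of each member in each tissue where it passed the filter had rho between 0.478 and 0.826. Libraries of a tissue share depth differences that enter each of these values. L1_Mus2_dup18345 and Lx6_dup17183 were both chosen for low TS-nt levels in these cortex libraries, so nothing is read from their likeness. The same holds for Lx5c_dup5368 and Lx7_dup11750 in hippocampus.

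The 3 elements that the study lists for TS-nt vs. WT-nt but not as rescued stood just outside the list and are given as levels only. L1Md_F2_dup59906 had means of 581, 626, 967 and 824 CPM in WT-nt, WT-t, then TS-nt and TS-t cortex and of 688, 803, 1127 and 1094 CPM in hippocampus. L1_Mm_dup4871 had 888, 948, 1590 and 1384 CPM in cortex and 728, 869, 1211 and 1209 CPM in hippocampus. For these 2, TS-t mice stayed nearer to TS-nt than to WT-nt mice in both tissues. Lx8_dup2917 had 23.7, 7.32, 3.76 and 8.77 CPM in cortex and 16.4, 9.43, 12.7 and 14.7 CPM in hippocampus. Across mice the rho of L1Md_F2_dup59906 was 0.673 and that of L1_Mm_dup4871 0.526, both above every rescued element but Lx5c_dup5368, which lay between them. With group means subtracted they fell to 0.391 and 0.228, and L1_Mm_dup4871 was then below 6 of the rescued elements beside Lx5c_dup5368.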

How the data were processed

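Total RNA of each brain region was made into stranded libraries depleted of ribosomal RNA and sequenced on a NovaSeq. Per the labels and the study's methods, the authors trimmed reads (Trimmomatic 0.38), placed them on GRCm38/mm10 (HISAT2 2.1.0), allowing up to 5 alignments per read, and assigned reads to single L1 loci with Telescope, which shares out reads that map to several copies. The submitters' processing notes also name StringTie 2.1.3b. The deposited L1 counts are whole numbers without normalization, and 0 columns lay outside the sample map. Pairs of libraries with identical counts numbered 0.

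Groups came from the sample labels, and the 2 tissues of a mouse were paired by the animal label. Over the 3722 elements that passed the filter in both tissues, the median of an element's rho across the 46 mice was 0.112. No mismatched pairs of mice were compared, so this value does not check the pairing. Elements were filtered with filterByExpr (minimum count 10, minimum total 15), scaled with TMM and tested with edgeR 4.0.16 (R 4.3.3, limma 3.58.1). Each tissue had 1 fit with its 4 groups, and adjusted p-values used the Benjamini-Hochberg method over all elements at 0.1. Differences of mean CPM were tested with two-sided permutation tests, exact where a group had under 10 mice and with 100000 draws otherwise. Correlations used log2 CPM with a prior count of 2, and ties at 0 counts were not kept in the ranks. Alternatives included DESeq2 1.42.0, other filters, no TMM factors, each replicate left out, and label start 20 only. Python 3.11.15, numpy 2.4.6, pandas 2.3.3, scipy 1.17.1 and numba 0.67.0 were used, and edgeR was tested on simulated data. Element positions are those the study gives, set against GENCODE M21. The members and lists were chosen with earlier results of these data known. Named elements were all members, the 3 listed but not rescued, the 2 elements most like each member, and genes that hold or flank members. Gene counts were not used here. The position of 1 element is not reported here.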

Additional observations from a re-analysis of the deposited data

Results flagged for a closer look

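In 9 of the 40 sets of WT-nt or TS-nt mice, 1 for each element, tissue and group, 1 mouse lay far from the nearest other one of its group, and chance alone gives about 1 in 20 such groups where values are normal, a rate not derived for counts with many zeros or for sets that share libraries. Mouse 27 (TS-nt) accounted for 4 of them. In its cortex L1_Mus2_dup18345 was at 70.8 CPM, with the next mouse at 28.9, Lx6_dup17183 at 143 CPM, with the next at 69.9, and Lx7_dup14700 at 37.8 CPM, with the next at 12.7. In its hippocampus L1_Mus3_dup17767 was at 46.9 CPM, with the next at 20.5. The cortex library of mouse 27 was the second deepest of its tissue (763030 L1 counts) and its hippocampus library the deepest (403378), and the part of depth in these values was not tested.

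Mouse 43 (WT-nt) accounted for 2, both in hippocampus, with L1MA4_dup880 at 971 CPM, against 740 for the next mouse, and Lx5c_dup5368 at 233 CPM, against 137. Lx5c_dup5368 in cortex was at 98.7 CPM in mouse 41 (TS-nt), with the next mouse at 34.1. Lx8_dup23295 in TS-nt mice was at 3.62 CPM in the cortex of mouse 26, which is 1 count, and at 21.8 CPM in the hippocampus of mouse 23, which is 5 counts.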

How the results depend on the processing

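In the tissue the elements were not listed for, 0 members were called in every comparison and under each alternative. The share of all elements called differed widely between alternatives. Over elements of 10 or more counts, edgeR called 6.87% to 25.0% in cortex and 10.6% to 14.5% in hippocampus, depending on the comparison. With no filter it called 2.98% to 18.4% and 0% to 9.27%. Under every other alternative at most 0.401% were called. Of the 50 differences in mean CPM in the tissue not of the list, 4 changed sign without TMM factors, 3 on mean log2 CPM, 0 on ranks, 13 with treated mice of label start 20 and 18 when single libraries were left out. With label start 20, the WT-t mean lay between those of WT-nt and TS-nt for 6 elements in the tissue of the list and 3 in the other, and the TS-t mean for 3 in the other. Between cortex and hippocampus, keeping every element of 10 or more counts left 1 call, 1 higher and 0 lower in cortex. Of all 224327 elements, 13.7% were called in that fit, 25718 higher and 5123 lower in cortex. The replicate block (mouse) gave 4 calls with 2 lower in cortex, beside 22.8% of all 7551 elements. It changed no call other than those of L1_Mus2_dup18345 and Lx5c_dup5368.

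The cause of a turned sign was not tested. With label start 20, where WT-t is 3 mice, Lx6_dup17183 in hippocampus went from 47.3 CPM in TS-t and 32.3 in WT-t to 35.5 and 52.6, and Lx5c_dup5368 in cortex from 31.9 to 54.3 CPM in WT-t, against 47.6 in WT-nt. Lx8_dup23295 in hippocampus (TS-nt vs. WT-nt) became 0.1003 CPM without TMM factors and ran from -2.74 to 1.05 CPM without single libraries, turning for 9 of them. Lx7_dup11750 in cortex became 28.7 CPM without TMM factors, 0.0346 on mean log2 CPM and 0.0279 in DESeq2 over elements of 10 or more counts, and ran from -93.2 to 31.6 CPM without single libraries, turning without mouse 32, 33 or 43. L1Md_F2_dup5854 in cortex ran from -1.85 to 10.1 CPM, turning without mouse 24 or 25, and its edgeR log2 fold change was -0.14 without the far libraries and 0.0569 between tissues over elements of 10 or more counts. Across mice, the Spearman correlation between tissues became -0.0112 for L1_Mus2_dup18345 without far mice, 0.11 for Lx7_dup14700 with label start 20, and -0.0234 for Lx6_dup17183 and -0.14 for Lx2A_dup118 with group means subtracted. Depth limits the 3 rarest elements, Lx8_dup23295, Lx7_dup14700 and L1_Mus2_dup18345, whose hippocampus levels are a few reads.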
